A study of Rattus norvegicus with 6 samples.

Results

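F-box proteins are the substrate-binding subunits of SCF ubiquitin ligases, and their genes were followed in rat motor neuron cultures exposed briefly to camptothecin. Members were the transcript clusters whose only gene symbol in the platform annotation is Fbxl, Fbxo or Fbxw followed by a digit, with the cluster of highest mean taken for each gene. This gave 50 clusters for 49 genes, of 14506 genes tested: 13 Fbxl, 29 Fbxo and 7 Fbxw genes. All 49 carry the same symbol in RefSeq's gene table for GRCr8, a rat assembly.

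The cultures came from rat embryos at embryonic day 13.5 and were kept for 2 days in vitro. One group of 3 arrays came from cultures given 1 microM camptothecin for 2 h, and the other 3 arrays came from cultures given an equal volume of DMSO, the solvent, for the same time. Camptothecin, a compound first isolated from a tree, locks topoisomerase 1 onto the DNA it has cut. The labels name no strain, genotype or sex. Within each treatment the 3 samples are labelled as biological replicates. Whether they came from separate litters or preparations is not said, and p-values measure the spread among them. RNA was read on Affymetrix Rat Gene 1.0 ST arrays, and values are log2 expression values as deposited.

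In an SCF complex the cullin Cul1 acts as a scaffold. One end of it holds the RING protein Rbx1, which recruits a ubiquitin-conjugating enzyme, and its other end holds the adaptor Skp1, to which an F-box protein binds through its F-box. The rest of the F-box protein grips the substrate: leucine-rich repeats in Fbxl proteins, WD40 repeats in Fbxw proteins, and other domains or none recognised in Fbxo proteins. Exchange of F-box proteins on the scaffold and attachment of Nedd8 to the cullin set which SCF complexes are active. In neurons, F-box proteins are known for roles in axon growth, synapses, the circadian clock and mitochondrial quality.

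The arrays of a treatment were alike, with Pearson's r over all 29214 clusters of 0.992 to 0.994 with camptothecin and 0.994 to 0.995 with DMSO, against 0.983 to 0.985 between treatments. Array medians were 6.31 to 6.33 with camptothecin and 6.22 to 6.28 with DMSO, so the deposited scale itself was slightly higher with the drug. Markers of the labelled cell type were partly faint. Of 11 motor neuron markers listed, 9 were measured, and Mnx1 and Chat were not among them. Of the 9, 6 lay below the median of all cluster means (6.28), a level called dim here. Among these 6 were the homeodomain factors Isl1 and Isl2. The neurofilament genes Nefm and Nefh and the factor Lhx3 were not dim, with means over the 6 arrays of 10.77, 6.57 and 6.44. None of 7 interneuron markers was dim; brightness of different probes gives no shares of cell types. In these bulk samples fewer cells of a type cannot be told apart from less RNA per cell. Interneuron markers fell in 5 of 7 cases (71.4%, beside 9.35% of all genes), but not Slc32a1 (0.23) or Lhx1 (0.10). Motor neuron markers rose in 3 of 9 (33.3%, beside 11.3%), namely Prph, Nefm and Nefh. Isl1, Slc18a3, Slc5a7 and Lhx4 had changes below 0 that did not pass. The median genomic span was 40.8 kb in the interneuron list and 8.02 kb in the motor neuron list. In the other marker lists 1 of 7 progenitor and astroglial genes fell (Pax6, -0.58), 1 of 2 oligodendrocyte and Schwann cell genes fell (Mbp, -0.48), 1 of 6 endothelial, blood and microglial genes rose (Cd68, 0.86) and 1 of 4 muscle genes rose (Acta1, 0.32). None of 4 fibroblast genes passed. For all these markers, their part in the results for the F-box genes was not tested.

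Of the 49 F-box genes, 3 fell and 2 rose after camptothecin, and 44 did not pass the test (limma, camptothecin minus DMSO, Benjamini-Hochberg adjustment over all clusters, threshold 0.05). The 3 that fell make up 6.12% of the members, beside 9.35% of all genes, and the 2 that rose make up 4.08%, beside 11.3% of all genes. Neither count exceeded the background. The median log2 change was 0.02 for the F-box genes and 0.06 for all genes. Changes were less than 0.25 in size in 40 of 49 F-box genes, beside 10214 of all 14506 genes. The quartiles of the changes were -0.128 and 0.135, beside -0.077 and 0.195 for all genes. Fbxl7 stood farthest out, followed by Fbxo11 and Fbxw11.

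The upstream sequences of the 5 genes that passed the test are shown because these are the promoters whose transcripts moved. Each is the 250 bases before the annotated start, 5′ to 3′, from RefSeq on GRCr8, a build that may differ from the array's. Capitals mark matches, on either strand, to 7 general promoter motifs chosen with the results known: the GC box GGGCGG, the box named for its letters CCAAT, the TATA box TATAAA, the ETS core CCGGAA, the NRF1 core GCATGCGC, the CRE TGACGTCA and the E box CACGTG.
Fbxl7, chr2:79239698-79239947, minus strand: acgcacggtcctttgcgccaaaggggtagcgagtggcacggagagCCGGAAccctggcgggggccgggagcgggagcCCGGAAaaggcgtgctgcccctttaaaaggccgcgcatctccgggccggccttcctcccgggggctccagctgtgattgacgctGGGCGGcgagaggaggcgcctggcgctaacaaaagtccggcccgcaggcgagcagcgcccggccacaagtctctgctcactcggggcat
Fbxo11, chr6:12291692-12291941, plus strand: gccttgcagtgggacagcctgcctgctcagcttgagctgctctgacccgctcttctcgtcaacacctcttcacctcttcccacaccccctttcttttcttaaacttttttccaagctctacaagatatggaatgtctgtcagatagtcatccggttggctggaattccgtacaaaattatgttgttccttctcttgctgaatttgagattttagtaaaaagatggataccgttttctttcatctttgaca
Fbxw11, chr10:17736947-17737196, plus strand: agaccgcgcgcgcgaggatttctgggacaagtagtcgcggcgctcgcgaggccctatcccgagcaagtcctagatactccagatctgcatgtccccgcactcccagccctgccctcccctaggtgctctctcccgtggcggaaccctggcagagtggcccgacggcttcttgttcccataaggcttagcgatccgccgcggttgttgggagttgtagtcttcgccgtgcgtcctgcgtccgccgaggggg
Fbxl19, chr1:191789178-191789427, plus strand: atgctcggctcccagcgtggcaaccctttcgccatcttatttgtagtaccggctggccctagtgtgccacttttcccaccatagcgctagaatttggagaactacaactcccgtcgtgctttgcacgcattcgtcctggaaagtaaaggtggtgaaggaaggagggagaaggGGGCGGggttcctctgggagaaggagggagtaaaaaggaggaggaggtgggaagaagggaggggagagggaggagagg
Fbxw9, chr19:40002313-40002562, minus strand: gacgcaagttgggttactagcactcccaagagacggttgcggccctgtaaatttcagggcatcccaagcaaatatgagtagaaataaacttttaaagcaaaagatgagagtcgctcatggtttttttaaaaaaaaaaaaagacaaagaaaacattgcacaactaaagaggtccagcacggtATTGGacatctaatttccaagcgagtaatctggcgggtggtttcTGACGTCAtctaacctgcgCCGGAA
The 3 genes that fell shared no motif of the 7: Fbxl7 held 1 GC box and 2 ETS cores, and Fbxo11 and Fbxw11 held none. Fbxl19 held 1 GC box, and Fbxw9 held 1 CCAAT, 1 ETS core and 1 CRE, with no overlap between matches. CpG content differed as well. The window held 27 CpG in Fbxl7 and 26 in Fbxw11, but 5 in Fbxo11, 10 in Fbxl19 and 10 in Fbxw9.

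Upstream sequence was available for 41 of the 49 F-box genes. Their median was 13 CpG in 250 bases and 59.2% G or C, beside 6 CpG and 52% over 27457 rat promoters of the same length. A GC box was found in 22 of the 41 (53.7%, beside 32.4% of all promoters) and an ETS core in 14 (34.1%, beside 13.4%). The NRF1 core was found in 4 (9.76%, beside 2.38%), and CCAAT in 11 (26.8%, beside 34.3%). A CRE was in 1 and an E box in 1 (2.44% each, beside 1.7% and 5.79%). TATAAA was in 0 of the 41, beside 13.1% of all promoters. These are matches of letters and not binding sites.

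Fbxl7, an F-box protein with leucine-rich repeats known for targeting Aurora kinase A and survivin for degradation, had the largest change of the family. Its values were 6.86, 6.98 and 6.98 with camptothecin, against 8.45, 8.54 and 8.24 with DMSO. All 3 camptothecin arrays lay more than 1 log2 unit below the lowest DMSO array. Fbxl7 fell by 1.47 on the log2 scale (SE 0.10, n = 3 per treatment, adjusted p = 0.000161), so it was 2.77-fold lower. Its adjusted p ran between 3.98e-06 and 0.00189 over the 17 alternative settings.

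Fbxo11, which has a carbohydrate-binding-like beta-helix region and directs the repressor BCL6 to degradation in human lymphoid cells, was next. It measured 10.01, 9.99 and 9.88 with camptothecin, against 10.68, 10.64 and 10.70 with DMSO. The groups were far apart relative to their SDs of 0.07 and 0.03. Fbxo11 fell by 0.71 (SE 0.07, adjusted p = 0.000768), or 1.64-fold, and passed in all 17 alternatives. It was among the 5 members with the brightest clusters, together with Fbxo30, Fbxo16, Fbxo3 and Fbxo9; brightness differs between probes and does not rank the genes by abundance.

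Fbxw11, also known as beta-TrCP2, recognises phosphorylated degrons such as those of beta-catenin and the NF-kB inhibitor. Its values were 7.71, 7.80 and 7.56 with camptothecin, against 8.06, 8.19 and 8.14 with DMSO. Fbxw11 fell by 0.44 (SE 0.08, adjusted p = 0.0138), or 1.35-fold, with no overlap between groups. The adjusted p was 0.0568 without DMSO replicate 2 and 0.0508 without DMSO replicate 3, and the call was kept without any 1 of the other 4 arrays.

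**Figure D1:**
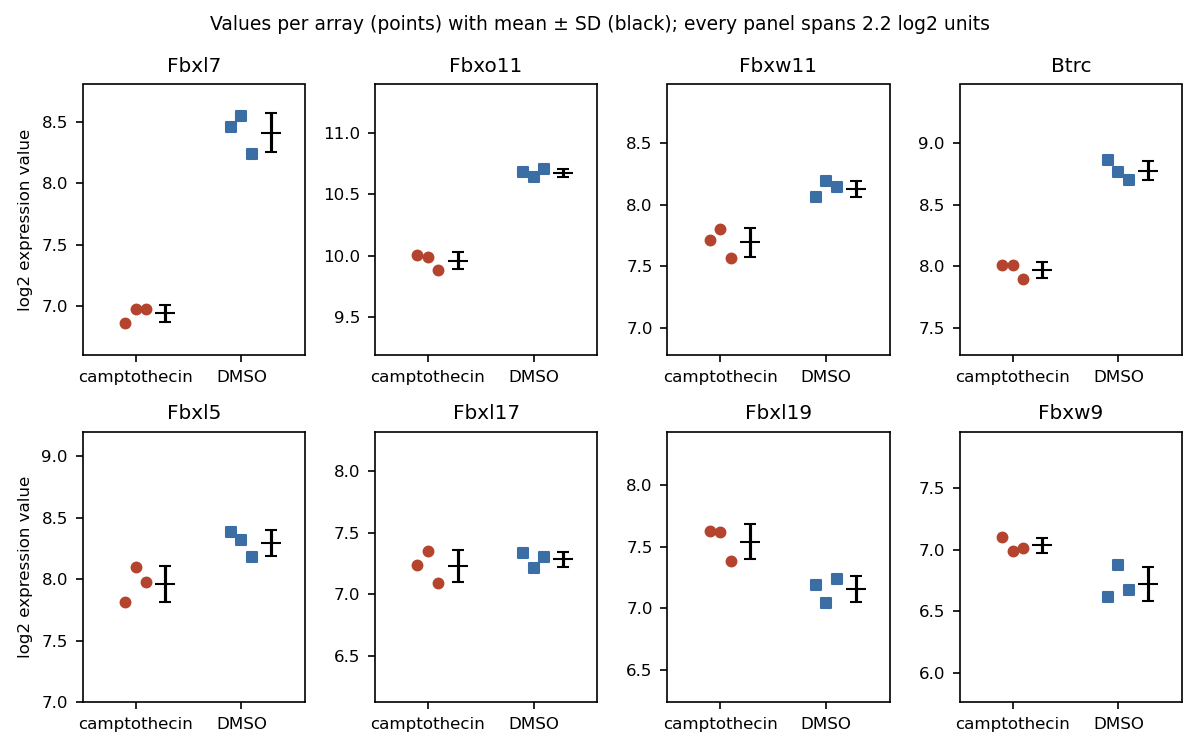
Log2 expression value of 8 genes on each array, camptothecin (red circles) left of DMSO (blue squares), with the mean ± SD of 3 arrays in black; every panel spans the same range. Fbxl7, Fbxo11, Fbxw11 and Btrc lie lower with camptothecin without overlap, Fbxl17 overlaps, and Fbxl19 and Fbxw9 lie slightly higher.

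Fbxl19 and Fbxw9 rose, by much smaller amounts. Fbxl19 carries a CXXC zinc finger that binds unmethylated CpG, beside its F-box. It measured 7.63, 7.62 and 7.38 with camptothecin, against 7.19, 7.04 and 7.24 with DMSO. Fbxl19 rose 1.31-fold (log2 change 0.39, SE 0.10, adjusted p = 0.0342). Fbxw9 has WD40 repeats; it measured 7.10, 6.99 and 7.01 with camptothecin, against 6.61, 6.87 and 6.67 with DMSO. It rose 1.25-fold (0.32, SE 0.09, adjusted p = 0.0496), at the edge of the threshold.

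Neither rise was held by all settings. Fbxl19 stayed past the threshold in 7 of 17 alternatives and Fbxw9 in 4. Leaving out camptothecin replicate 1 gave an adjusted p of 0.0877 for Fbxl19 and 0.121 for Fbxw9, and leaving out camptothecin replicate 2 gave 0.0878 and 0.0795. Without camptothecin replicate 3, Fbxw9 had 0.107 while Fbxl19 still passed. The values were 0.084 and 0.145 without DMSO replicate 1 and 0.0649 and 0.138 without DMSO replicate 3. Without DMSO replicate 2, Fbxl19 had 0.111 and Fbxw9 passed. Centring every array on its ribosomal protein genes left changes of 0.13 and 0.06.

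Among the other Fbxl genes no test was passed, though a few groups did not overlap. Over all genes, groups did not overlap in 15.5% with camptothecin lower and in 27.1% with it higher. Fbxl5, the iron-sensing F-box protein that removes the iron regulatory protein encoded by Ireb2, measured 7.81, 8.10 and 7.98 with camptothecin, against 8.38, 8.32 and 8.18 with DMSO. The camptothecin values were all below the DMSO values, but the change of -0.33 (95% interval -0.56 to -0.10) had an adjusted p of 0.06, and it passed in 8 of 17 alternatives. Fbxl4, a mitochondrial F-box protein, changed by -0.19 (adjusted p = 0.135). Fbxl16, which is abundant in brain, changed by 0.24 (adjusted p = 0.145), and the dim Fbxl6 by 0.24 (adjusted p = 0.0897), each with no overlap between groups.

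Fbxl20, known in mice as Scrapper for its control of the presynaptic protein RIM1, was the only member with more than 1 cluster. Its brighter cluster measured 7.32, 7.22 and 7.33 with camptothecin, against 7.35, 7.46 and 7.39 with DMSO. The change there was -0.10 (SE 0.07, adjusted p = 0.358), and 0.15 (SE 0.09, adjusted p = 0.317) in the dimmer cluster, so the clusters differed in sign with neither past the threshold. Fbxl17, which clears wrongly paired BTB dimers, changed by -0.06 (95% interval -0.26 to 0.15, adjusted p = 0.716). Fbxl12, Fbxl15, Fbxl8, Fbxl13 and Fbxl22 had changes between -0.07 and 0.14.

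The WD40 genes other than Fbxw11 and Fbxw9 gave no calls. Fbxw8, which works with the cullin Cul7 in growth of dendrites in rat neurons, changed by -0.20 (95% interval -0.47 to 0.07). Fbxw5 changed by 0.22, with a wide interval of -0.15 to 0.58, and the dim Fbxw17 by -0.14. Fbxw2 (-0.01, 95% interval -0.17 to 0.14) and Fbxw4 (-0.02) lay closest to 0.

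Of the 29 Fbxo genes, Fbxo11 alone passed the test. Fbxo33 had the highest change of the other 28, at 7.24, 7.60 and 7.36 with camptothecin against 7.04, 7.16 and 6.88 with DMSO. The groups did not overlap, and the change of 0.37 (SE 0.12) had an adjusted p of 0.0708; it passed in 3 of 17 alternatives. At the low end were Fbxo34 (-0.27, adjusted p = 0.154) and Fbxo7. Fbxo7, mutated in an inherited parkinsonism and tied to the removal of damaged mitochondria, measured 8.94, 8.88 and 8.70 with camptothecin, against 9.07, 9.07 and 9.08 with DMSO. Its change was -0.23 (95% interval -0.42 to -0.04, adjusted p = 0.0941), with no overlap and a call in 4 of 17 alternatives.

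The other brightest Fbxo clusters moved little. Fbxo30 measured 10.25, 10.43 and 10.38 with camptothecin, against 10.28, 10.16 and 10.17 with DMSO, a change of 0.15 (95% interval -0.03 to 0.33). Fbxo16 changed by 0.11, Fbxo3 by 0.11 and Fbxo9 by 0.09, with SEs of 0.07 to 0.08. In these 3 genes every camptothecin value lay above every DMSO value, as in 27.1% of all genes, and none passed the test. With arrays centred on their median the 3 changes were 0.05, 0.04 and 0.03. With arrays centred on ribosomal protein genes they were -0.14, -0.15 and -0.16. Fbxo5, also called Emi1, restrains the anaphase-promoting complex before mitosis and changed by 0.09 (95% interval -0.12 to 0.29).

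Fbxo2, Fbxo6 and Fbxo17 belong to the group with a sugar-binding domain, of which Fbxo2 is a neuronal receptor for N-glycans on misfolded glycoproteins. They changed by 0.13, 0.03 and 0.00 (adjusted p = 0.391, 0.866 and 0.986), and Fbxo17 was dim. Among paralogues, Fbxo25 changed by 0.13 and Fbxo32, or atrogin-1, the muscle atrophy ligase, by 0.03 (adjusted p = 0.446 and 0.841); Fbxo32 was dim at 4.81 with camptothecin and 4.77 with DMSO. Fbxo11 and Fbxo30 belong to separate paralogue pairs; their partners, Fbxo10 and Fbxo40, were not analysed here.

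Of the 49 members 15 were dim, 10 of them Fbxo genes, and 0 of the 15 passed limma's adjusted threshold (1 had an unadjusted p under 0.05). They include Fbxo43, the oocyte protein Emi2, Fbxo15, a marker of embryonic stem cells in mice, and Fbxo41, known as a brain F-box protein. Of the 34 members above the dim level, 3 fell (8.82%) and 2 rose (5.88%). Over all genes, dim ones included, 9.35% fell and 11.3% rose. Of all 14506 genes 6034 were dim, and the shares called among dim genes and among the others were not counted.

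**Figure D2:**
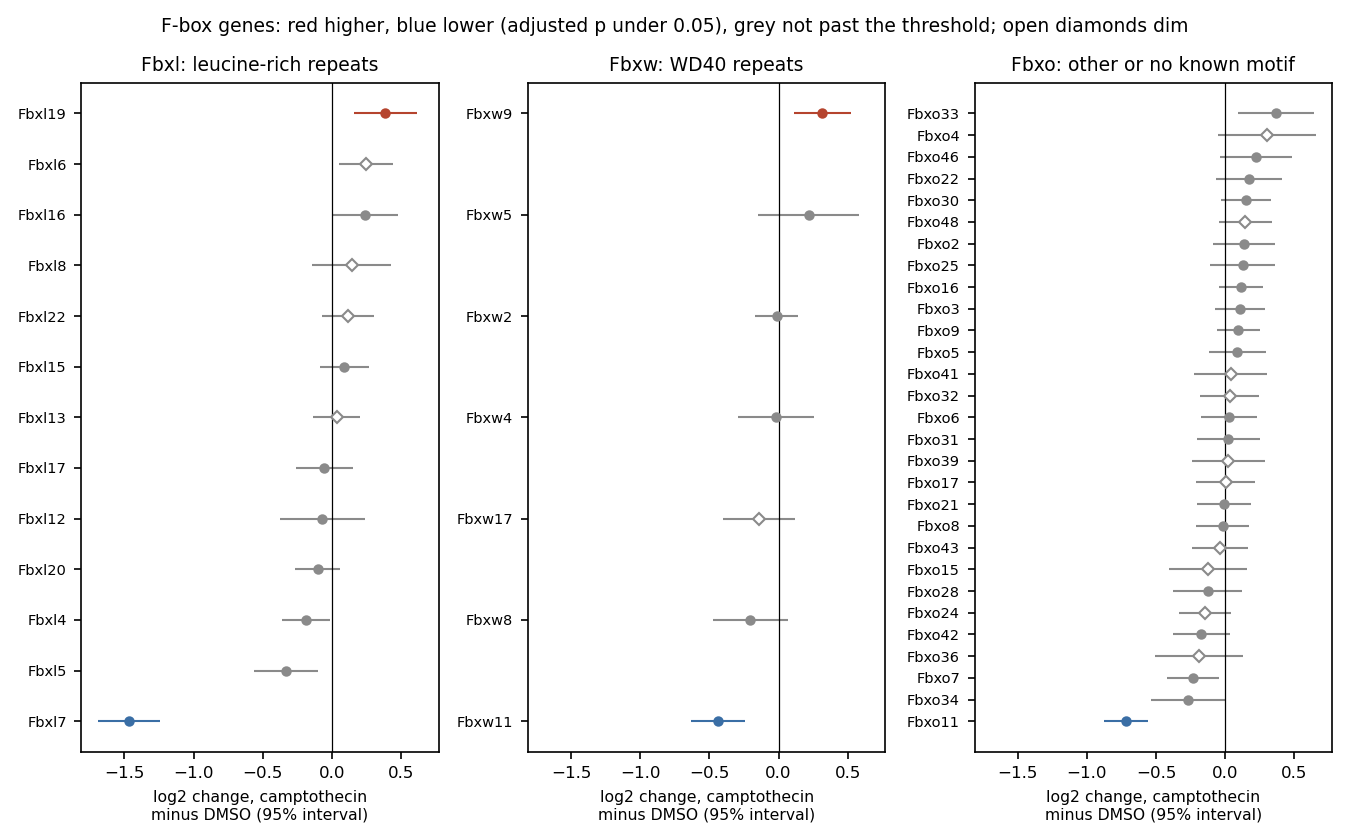
Log2 change of each of the 49 F-box genes, camptothecin minus DMSO, with its 95% interval from limma, by subfamily; colour gives the call and open diamonds are dim genes. Fbxl7 at -1.47 stands apart from a body of genes whose intervals mostly include 0.

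Groups failed to overlap for 15 of the 49 genes. In 7 of them (14.3%) camptothecin was lower, beside 15.5% of all genes, and in 8 (16.3%) it was higher, beside 27.1%. The 15 include the 5 called genes.

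Genomic span went along with the changes in this family, as it did over all genes. Across the 49 F-box genes Spearman's rho of GRCr8 span and log2 change was -0.59, and -0.57 without Fbxl7; over the 14474 genes with a span it was -0.31. Genes share arrays and probe design and are not independent replicates, so these values describe the set. The 26 members under 30 kb had a median change of 0.11, beside 0.10 for all genes of that span. Of them 2 were higher (7.69%, beside 15.2% of all genes under 30 kb) and 0 lower (beside 2.34%). The 23 members of 30 kb or more had a median of -0.06, beside -0.03 for all such genes. Of the 23, 3 were lower (13.0%, beside 22.1%) and 0 higher (beside 4.29%).

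The longest members did not move alike. Of 4 F-box genes spanning 100 kb or more, 1 fell (25%), beside 34.8% of all genes of that span. Fbxl7 spans 369 kb. Fbxl17, at 439 kb, measured 7.24, 7.35 and 7.09 with camptothecin, against 7.34, 7.21 and 7.30 with DMSO. The fall of Fbxl7 exceeded the change of Fbxl17 by -1.41, with an exact two-sided permutation p of 0.1, the smallest that 3 arrays against 3 allow; this pair was chosen after its values were seen. Fbxo15 (315 kb) and Fbxl13 (198 kb) were dim and changed by -0.13 and 0.03. Fbxw11 and Fbxo11 span 97.7 kb and 75.9 kb, and Fbxl19 and Fbxw9 24.3 kb and 6.91 kb.

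**Figure D3:**
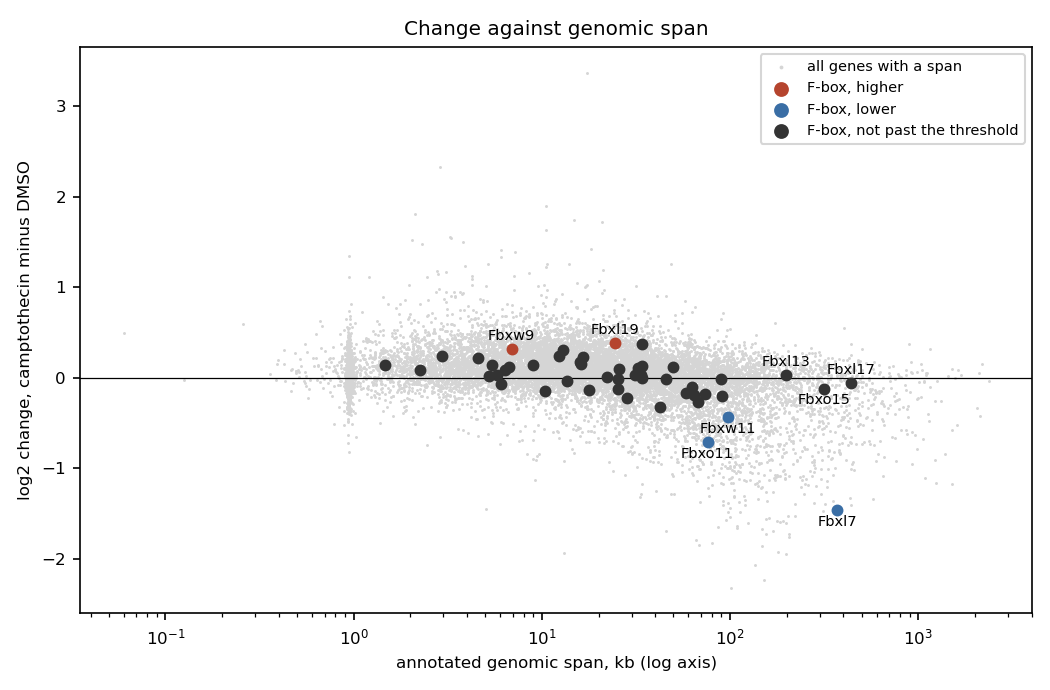
Log2 change, camptothecin minus DMSO, against annotated genomic span in kb on a log axis, for all genes with a span (light grey) and the F-box genes (coloured by call). The 3 that fell span 75.9 kb or more and the 2 that rose 24.3 kb or less, while Fbxl17 at 439 kb lies near 0.

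Other proteins with an F-box carry names outside the family's numbering, and 7 of 8 such genes listed were measured. Of these, 2 fell (28.6%, beside 9.35% of all genes) and 0 rose (beside 11.3%). These are mostly long genes, with a median span of 83.9 kb. Of all genes of 30 kb or more, 22.1% were lower and 4.29% higher. The 2 that fell, Btrc and Kdm2a, span 166 kb and 83.9 kb. Btrc, or beta-TrCP1, the paralogue of Fbxw11, measured 8.01, 8.01 and 7.89 with camptothecin, against 8.86, 8.77 and 8.70 with DMSO. It fell by 0.81 (SE 0.07, adjusted p = 0.000688), so transcripts of both beta-TrCP genes were lower. The change of Fbxw11 was above that of Btrc by 0.37 (exact two-sided permutation p = 0.1, the smallest possible; 2 gene pairs were compared in this way, and adjustment leaves 0.1). Kdm2a, a histone H3 demethylase with an F-box and, like Fbxl19, a CXXC finger, measured 8.59, 8.73 and 8.61 with camptothecin, against 9.33, 9.34 and 9.33 with DMSO, and fell by 0.69 (SE 0.07, adjusted p = 0.000875). Skp2, which targets the inhibitor p27, changed by 0.24 (adjusted p = 0.124), and Ccnf, Kdm2b, Lmo7 and Eloa did not pass either.

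The rest of the SCF machinery also moved by small amounts in both directions. Of 9 core subunits and conjugating enzymes measured, 1 fell and 1 rose (11.1% each, beside 9.35% and 11.3% of all genes). Cul1, the scaffold, measured 11.07, 11.06 and 10.99 with camptothecin, against 11.42, 11.33 and 11.34 with DMSO, and fell by 0.32 (SE 0.07, adjusted p = 0.0171). Rnf7, the RING partner used mainly by Cul5, rose by 0.33 (adjusted p = 0.0228). Skp1, the adaptor that holds the F-box protein in an SCF complex, changed by 0.06 (95% interval -0.09 to 0.21), and Rbx1 by 0.08.

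Of 22 genes for cullin neddylation and subunit exchange, 5 fell (22.7%, beside 9.35% of all genes) and 3 rose (13.6%, beside 11.3%). Cand1, the factor that swaps F-box proteins on Cul1, measured 10.13, 10.07 and 10.07 with camptothecin, against 10.44, 10.43 and 10.44 with DMSO, and fell by 0.35 (SE 0.06, adjusted p = 0.0102). The Nedd8 ligases Dcun1d5 (-0.46), Dcun1d3 (-0.37) and Dcun1d1 (-0.36) and the Nedd8-activating subunit Uba3 (-0.25) also fell. Nedd8 itself rose (0.26), as did Cops3 (0.40) and Cops9 (0.33), subunits of the signalosome that removes Nedd8. Of 7 other cullins listed, 4 were measured, and Cul4a, Cul7 and Cul9 were not among them. Of the 4, 0 rose (beside 11.3% of all genes) and 2 fell (50%, beside 9.35%). All 4 span 38.0 kb or more, and of all genes of 30 kb or more 22.1% were lower and 4.29% higher. Cul2 fell by 0.93 (SE 0.09, adjusted p = 0.00076) and Cul5 by 0.37 (SE 0.06, adjusted p = 0.00755).

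Over these 35 partner genes 8 fell (22.9%) and 4 rose (11.4%), beside 9.35% and 11.3% of all genes. Their median change was -0.05. Only 1 of the 35 was dim, against 6034 of all 14506 genes, so the backgrounds differ in brightness. Of the 14 partner and other F-box genes called, 5 kept their call with each array left out in turn: Cand1, Btrc, Kdm2a, Cul2 and Cul5. The other 9 lost it without at least 1 array, and 9 were lost without DMSO replicate 3, 8 without DMSO replicate 1 or 2, 6 without camptothecin replicate 2 or 3 and 5 without camptothecin replicate 1.

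**Figure D4:**
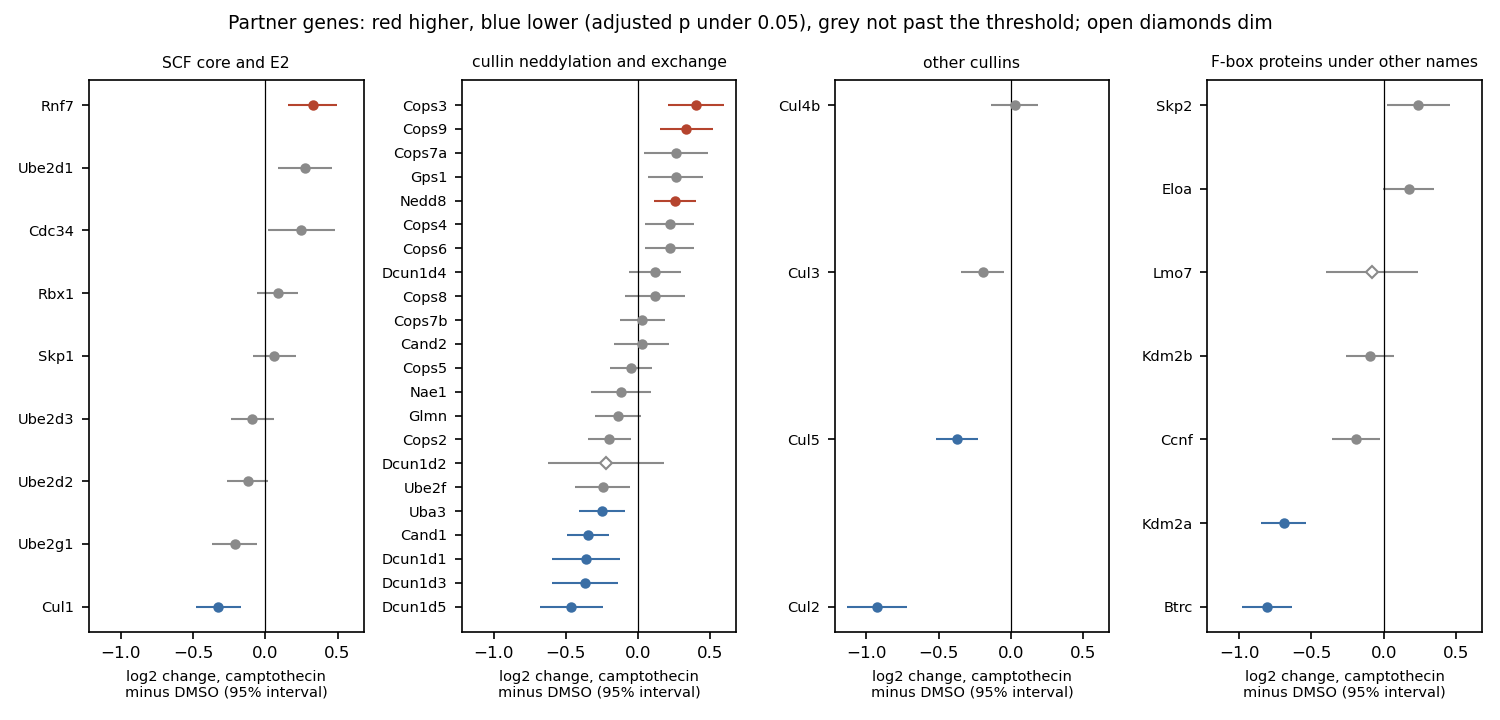
Log2 change, camptothecin minus DMSO, with 95% interval for SCF core genes, neddylation and exchange genes, other cullins and F-box proteins with other names; colour gives the call and the open diamond a dim gene. Cul2 at -0.93, Btrc at -0.81 and Kdm2a at -0.69 lie lowest.

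Transcripts of 22 proteins known as SCF substrates were also listed. Of these, 9 were higher (40.9%, beside 11.3% of all genes) and 4 lower (18.2%, beside 9.35%). Their median span was 16.6 kb, and of all genes under 30 kb 15.2% were higher and 2.34% lower. Only 1 of the 22 was dim, against 6034 of all 14506 genes, so the backgrounds differ in brightness. Jun (0.95), Cdkn1b, which encodes the Skp2 target p27 (0.52), Ccnd1 (0.44), Cdc25a (0.36) and Per1 (0.34) rose. Cdkn1a, Nfkbia, Ccne1 and Rrm2 were the other rises. Cry2 (-0.85) and Cry1 (-0.66), repressors of the circadian clock, fell, as did Ireb2 (-0.43) and Mcl1. These are transcript levels, and protein was not measured. Without at least 1 of the arrays the calls of Per1, Cdc25a, Ireb2, Ccnd1 and Rrm2 were lost.

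Receptors of the other cullin ligases were compared as descriptions, beside 9.35% of all genes lower and 11.3% higher. Of 30 Klhl genes, receptors of cullin 3, 5 fell (16.7%) and 2 rose (6.67%). Of 9 Dcaf genes, receptors of cullin 4, 3 fell (33.3%) and 2 rose (22.2%). Of 19 Asb and Socs genes, receptors of cullin 5, 2 fell (10.5%) and 1 rose (5.26%). Their median changes were 0.10, 0.10 and 0.06, beside 0.02 for the F-box genes and 0.06 for all genes. The lowest change was -1.12 in Klhl, -0.73 in Dcaf and -0.82 in Asb and Socs, beside -1.47 in the F-box family and -2.32 over all genes. These sets hold different numbers of genes, so their lowest values are not like for like.

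The number of F-box genes called changed with the scale. Fbxl7 and Fbxo11 fell in each of the 17 alternatives. The mean of the ribosomal protein genes was itself higher with camptothecin on the deposited scale. Centring every array on its ribosomal protein genes therefore moved the median change of all genes from 0.06 to -0.20. On that scale 16 of 49 F-box genes were lower and 0 higher, beside 31.4% lower and 2.39% higher of all genes. Those 16 were the 3 called genes and 13 others, including Fbxl5, Fbxo7, Fbxl4, Fbxl17 and Fbxl20.

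**Figure D5:**
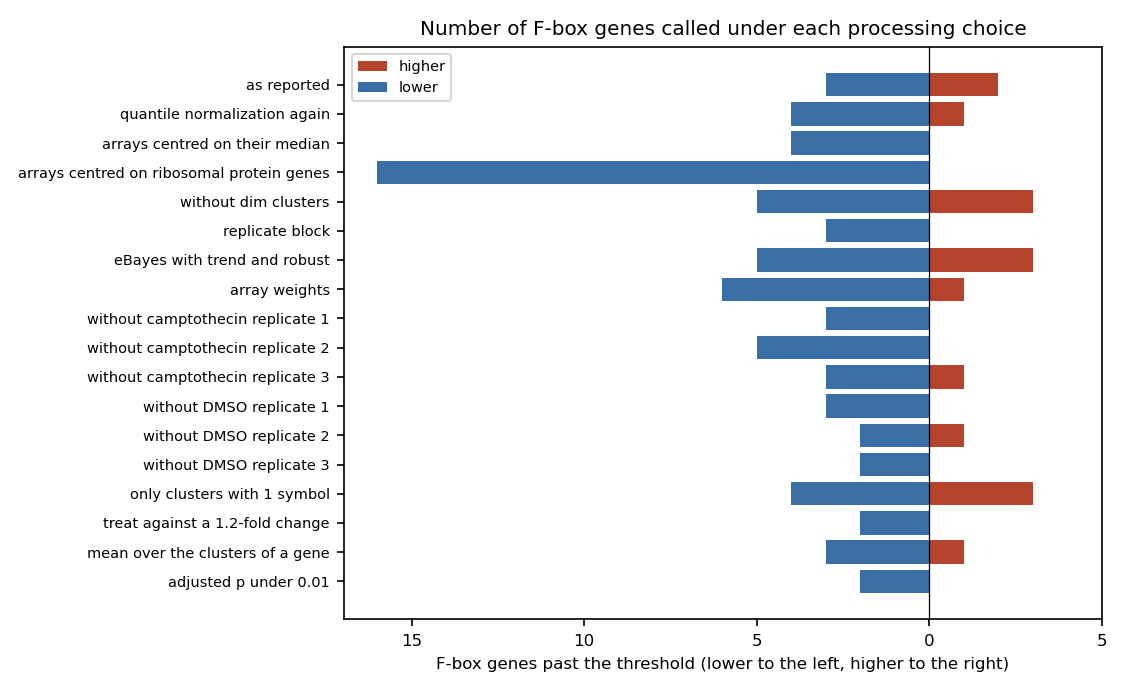
Number of F-box genes past the threshold under each processing choice, lower to the left (blue) and higher to the right (red). Lower calls number 2 to 6 in all settings but the ribosomal centring, where they number 16, and higher calls number 0 to 3.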

How the data were processed

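Total RNA (1 microg) from 6 cultures was labelled as biotinylated cDNA and read on Affymetrix Rat Gene 1.0 ST arrays, per the labels' protocols. The authors deposited log2 expression values, 1 for each cluster on each array. RMA and oligo are named in the submitters' processing notes; for their versions, the annotation and the build, the sources used here give nothing. The platform annotation gave 1 symbol to 15310 of 29214 clusters, several to 323 and none to 13581; only the first kind was named. Values were tested as deposited with limma 3.58.1 in R 4.3.3 (lmFit, eBayes), without further normalization, filter or covariates. The intervals are limma's 95% intervals, and precision is limited by the number of arrays. The fit was also run on simulated data with independent errors and few changed clusters. That setting differs from these data, so it gives no support to the calls. Named members were all called genes, the 5 brightest, the gene with several clusters and fixed paralogues; of the partner lists, all called genes; other genes were named after their values were seen. Members, lists, rule and alternatives were chosen with earlier results of these data known. Spans come from GRCr8. The test did not pair samples by replicate number, since the labels do not say that a number marks a shared culture. Same-numbered deviations from the group means correlated at -0.13, 0.03 and 0.09, and different-numbered ones at -0.23 to 0.21. With 3 arrays per treatment these values cannot settle whether samples were paired. The alternatives were 17 settings and 2 span thresholds.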

Additional observations from a re-analysis of the deposited data

How the results depend on the processing

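As reported, 2 F-box genes were higher and 3 lower, the family median was 0.02, 1 of the 4 members of 100 kb or more was lower, and 4 partner genes were higher and 8 lower. The counts come from separate fits, and the cause of each change was not tested unless named. F-box genes higher numbered 1 with quantile normalization again, array weights and clusters averaged per gene, and 0 with median centring, ribosomal centring, the replicate block, treat against 1.2-fold and a threshold of 0.01 (0 to 1 with 1 array left out). F-box genes lower numbered 16 with ribosomal centring, 6 with array weights and 5 without dim clusters, where fewer clusters are tested, and with trend and robust (2 to 5 with 1 array left out). The median became -0.23 with ribosomal centring. Members of 100 kb or more that were lower numbered 2 with ribosomal centring, and 3 of 13 at a span threshold of 50 kb. Partner genes higher numbered 9 without dim clusters, 8 with trend and robust, 7 with quantile normalization again, 2 with median centring, 1 with the replicate block, and 0 with ribosomal centring, treat and a threshold of 0.01 (0 to 2 with 1 array left out). Partner genes lower numbered 19 with ribosomal centring, 13 with trend and robust, 4 with the replicate block, 2 at 0.01 and 1 with treat (3 to 5 with 1 array left out). No named gene was called in opposite directions by any setting. Of the 44 F-box genes not called, 14 were called in at least 1 alternative, 10 of them with ribosomal centring alone. With the replicate block Fbxl19 had an adjusted p of 0.08 and Fbxw9 0.105, while Fbxl7, Fbxo11 and Fbxw11 passed.

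Of limits, 3 arrays a treatment gave a median 95% interval 0.43 log2 units wide for an F-box gene. Signal over background was not measured in the values used here.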
